A study of Mus musculus with 9 samples.

Results

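The ribosomal protein genes were taken as the protein-coding genes of the mm9 annotation whose symbols start with Rpl or Rps and a digit, without the Rps6k kinases and names ending in -ps, together with Rplp0, Rplp1, Rplp2 and Rpsa. This rule found 85 members among 22238 protein-coding genes. The members comprised 42 genes of the large (60S) subunit, 3 genes of its P stalk, 31 genes of the small (40S) subunit and 8 additional paralogs of these genes. The remaining member was Rps19bp1, which encodes a protein that binds Rps19 and is not a ribosomal protein itself. For each member, the H3K27ac islands within 1 kb of an annotated transcription start site (TSS) were examined.

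Ribosomal proteins join the ribosomal RNAs to form the subunits that translate mRNAs. Their genes are expressed in nearly every cell, and their promoters are typically rich in CpG, lack a TATA box and begin transcription within a run of pyrimidines, the 5′ terminal oligopyrimidine tract, through which mTOR signalling controls translation of the mRNAs. Naive T cells are small, quiescent cells that translate little, and they raise ribosome production upon activation. Acetylation of histone H3 at lysine 27 (H3K27ac) marks active promoters and enhancers.

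ChIP-seq for H3K27ac was run on naive CD8+ T cells that had been sorted from the spleen as GFP+ TCRbeta+ CD62Lhi CD44lo-med cells. WT mice were hCD2-Cre+ Rosa26GFP Tcf7+/+ Lef1+/+ (4 H3K27ac samples and 1 input), and dKO mice were hCD2-Cre+ Rosa26GFP Tcf7fl/fl Lef1fl/fl (3 H3K27ac samples and 1 input), all on the C57BL/6 background, so that both genotypes carried the Cre transgene and the GFP reporter. Tcf7 encodes Tcf1, and Tcf1 and Lef1 are related DNA-binding factors that maintain T cell identity. The hCD2-Cre transgene acts mainly in mature T cells and does not excise in every cell, which is why GFP+ cells were sorted. The mice were young adults of both sexes.

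The values were 2 lists of H3K27ac islands, 1 per genotype, and the authors had pooled the samples of a genotype before calling. The WT list held 65563 islands with 82668007 counts and the dKO list held 82213 islands with 57665047 counts. Counts were therefore divided by the total of their list, and depth is given as counts per covered kb, or as CPM per kb where the genotypes are compared, with CPM the counts scaled to the island total of their list. Regions were made by joining islands of either list that shared at least 1 bp, and the regions at the TSS of a gene gave its summed counts and covered width. With 1 pooled list per genotype, no difference has a replicate check and none was tested. The 95% Wilson intervals cover counting error only, and they do not include the spread between mice. A count from a bulk sample cannot tell fewer cells with the mark from less mark per cell.

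The T cell markers Cd3d, Cd3e, Cd3g, Cd8a, Cd8b1, Ccr7 and Il7r had islands in both lists. Of the markers of other cells, Ebf1 (B cells), Ncr1 (natural killer cells) and Hba-a1 (erythroid cells) had no island in either list. Cd79a and Ms4a1 (B cells), Klrb1c (natural killer cells), Csf1r, Lyz2, Itgam and Cd14 (myeloid cells) and Cd4 and Zbtb7b (helper T cells) had islands in both lists. The myeloid markers had a median of 1.73 CPM per kb in WT and 1.85 in dKO. By scaled counts, the log2 dKO to WT ratio was 1.09 at Cd4, 0.70 at Csf1r, 0.37 at Klrb1c and 0.13 at Ms4a1. It was -0.06 at Itgam, -0.10 at Cd79a, -0.11 at Zbtb7b, -0.17 at Cd14 and -0.26 at Lyz2. The island at Cd4 covered 6.2 kb in WT and 15.8 kb in dKO. The part of other cells in the results on the members was not tested.

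Nearly all ribosomal protein genes carried H3K27ac at the promoter in both genotypes. An island was present in both lists at 82 of 85 members (96.5%), against 13496 of 22238 protein-coding genes (60.7%). No member had an island in only 1 list. All positions given here are in mm9. Of 2 other gene families that every cell uses, the mitochondrial ribosomal proteins had islands in both lists at 76 of 76 genes and the proteasome subunits at 39 of 39. The 3 members without any island were Rpl10l (chromosome 12, 67384368-67385388), Rpl39l (chromosome 16, 10170319-10175004) and Rps4y2 (chromosome 6, 148303178-148304120). All 3 are additional paralogs, and Rpl10l and Rpl39l are known from the male germ line. The other 5 additional paralogs, Rpl3l, Rpl7l1, Rpl22l1, Rpl36al and Rps27l, had islands in both lists.

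By their medians, the islands at the members were deeper and narrower than those of all genes. In WT, the members with islands had a median of 441 counts per kb, against 283 over all genes with islands in both lists, and 68 of 82 lay above the median of all genes. In dKO the medians were 229 and 169 counts per kb, and 67 of 82 members lay above the median of all genes. The median covered width was 6.7 kb in WT and 8.4 kb in dKO for the members, against 9.4 and 10.2 kb for all genes. The 2 comparison families were also deeper and narrower than all genes. In WT, the mitochondrial ribosomal proteins had medians of 401 counts per kb and 5.3 kb, and the proteasome subunits 367 counts per kb and 6.2 kb. In dKO, the medians were 208 counts per kb and 5.4 kb, and 212 counts per kb and 7.4 kb. The genes themselves are short, with a median length of 3.31 kb against 20.3 kb, and islands covered the whole gene at 31 of 82 members in WT (37.8%, against 13.8% of all genes) and at 32 of 82 in dKO (39.0%, against 16.9%). Members without a neighbour in their region had a higher depth, with a median of 6.51 CPM per kb in WT for 42 such members, against 4.87 for the 40 members that shared their region with another protein-coding gene.

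The deepest WT islands were at Rpl34 (60S, 13.0 CPM per kb), at Rpl36al, a paralog of Rpl36a (10.9), and at Rps27a (40S, 10.1), which encodes ubiquitin fused to a ribosomal protein. The shallowest were at Rpl13 (60S, 2.63), Rps21 (40S, 2.74) and Rpl10a (60S, 2.74). These 3 lay in regions that also held other genes, with 28.2, 90.8 and 47 kb covered in WT. In dKO, Rpl36al (11.5) and Rps29 (10.5) were the deepest members. Both genes lie on chromosome 12, Rps29 at 70258709-70260173 and Rpl36al at 70283718-70285070, in separate regions. Rpl34 had 6.74 CPM per kb in dKO. The plot of depth by member shows the value of every member in each genotype.

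**Figure D1:**
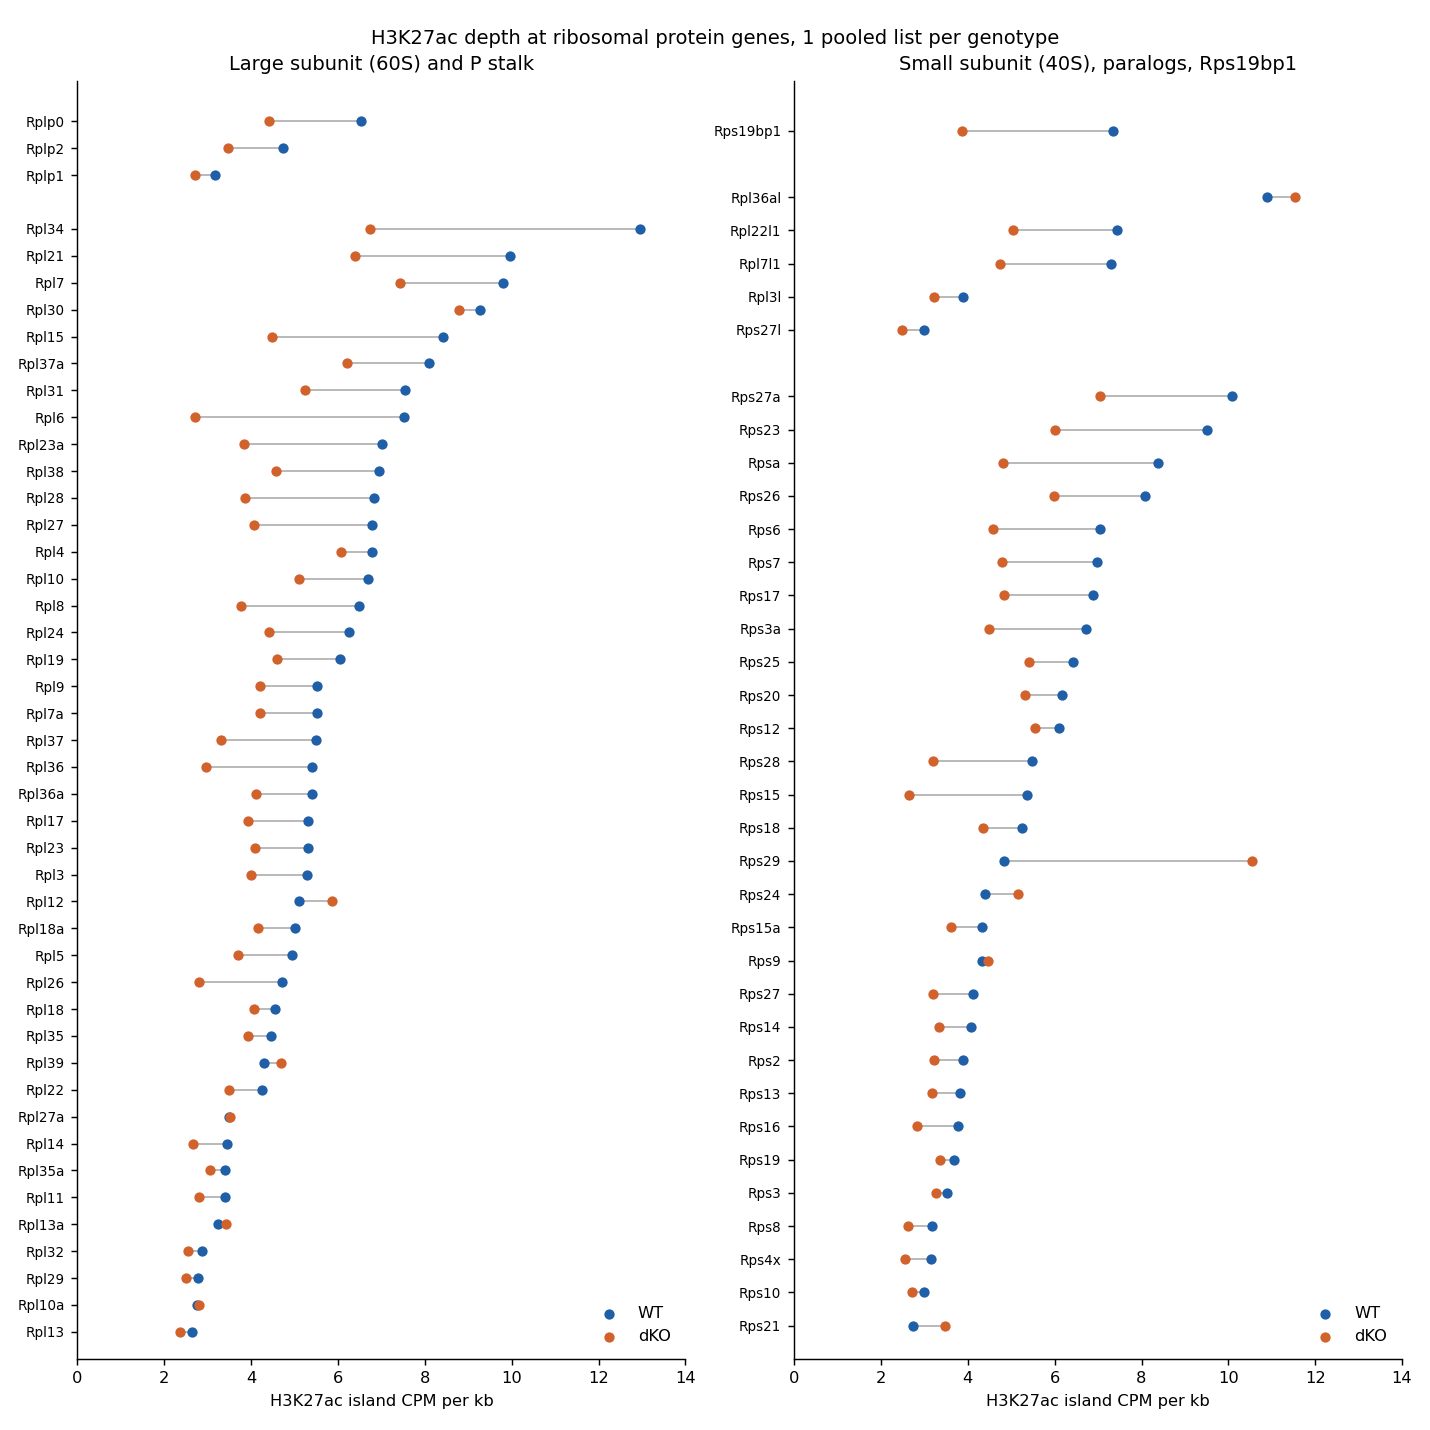
H3K27ac depth at 80 of the 82 ribosomal protein genes with islands in both lists, as island CPM per kb (horizontal axis), with 1 row per gene grouped by subunit and sorted by the WT value. Blue points are WT, orange points are dKO, and a grey line joins both values of a gene. The orange point lies to the left at 70 of the 80 genes, farthest at Rpl34 and Rpl6, and far to the right at Rps29.

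The promoters under these islands were searched for the sequence features known for the family. RefSeq promoters (GRCm38.p6, 250 bases before to 50 bases after a start) were listed for 63 of the 85 members, with 75 starts in all, and each of the 75 sequences was found exactly once in the mm9 genome. An island covered 73 of the 75 starts in each list, and the exceptions were those of Rpl10l and Rpl39l. A pyrimidine tract, taken as an unbroken run of at least 8 C or T that begins with C within 20 bases of the start, was present in 31 of 63 members (49.2%), against 16.3% of 14861 protein-coding genes, 19.4% of the mitochondrial ribosomal proteins and 15.6% of the proteasome subunits. The sequences below are shown for 7 members named in the comparison of genotypes, and 3 of the 7 hold such a tract (Rpl34, Rps24 and Rps6). Each is written 5′ to 3′ on the strand of the gene and ends 30 bases after the start, with mm9 positions. Capitals mark the longest pyrimidine run that begins with C near the start and each copy of CCGGAA or its reverse complement TTCCGG, the core bound by ETS factors.

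Rpl34, the deepest member in WT, is on the minus strand at chr3:130433226-130433505. Its run of 20 pyrimidines begins 17 bases before the start and overlaps an ETS core.
Rpl34: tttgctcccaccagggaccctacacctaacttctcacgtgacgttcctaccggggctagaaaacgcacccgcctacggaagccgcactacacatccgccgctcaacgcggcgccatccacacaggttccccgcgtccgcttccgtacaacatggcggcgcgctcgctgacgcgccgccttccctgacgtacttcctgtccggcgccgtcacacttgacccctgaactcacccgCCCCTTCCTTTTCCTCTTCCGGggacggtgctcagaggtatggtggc
Rpl12, at chr2:32816982-32817261 on the plus strand, is the member that the study's lists pair with an accessible site and with a super enhancer. Its run of 6 pyrimidines is below the minimum.
Rpl12: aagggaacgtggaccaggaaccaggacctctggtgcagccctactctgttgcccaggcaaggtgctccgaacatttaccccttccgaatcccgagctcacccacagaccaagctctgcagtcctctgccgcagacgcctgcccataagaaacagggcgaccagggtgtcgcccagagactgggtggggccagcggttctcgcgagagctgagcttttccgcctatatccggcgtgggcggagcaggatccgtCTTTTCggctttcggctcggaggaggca
Rps24, with a run of 8 pyrimidines at chr14:25309830-25309929 (plus strand), and Rps6, with a run of 10 at chr4:86503242-86503341 (minus strand), are the other printed members that reach the minimum.
Rps24: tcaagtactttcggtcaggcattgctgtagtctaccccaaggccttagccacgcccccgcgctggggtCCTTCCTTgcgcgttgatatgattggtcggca
Rps6: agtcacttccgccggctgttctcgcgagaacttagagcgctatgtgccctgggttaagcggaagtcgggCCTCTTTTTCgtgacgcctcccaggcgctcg
Rps21 at chr2:179992014-179992113, Rpl6 at chr5:121654440-121654539 and Rps15 at chr10:79755106-79755205 (all on the plus strand) have among the most extreme differences between genotypes, and their runs of 7, 6 and 7 pyrimidines are below the minimum. The values of Rps21 and Rps15 come from regions shared with other genes.
Rps21: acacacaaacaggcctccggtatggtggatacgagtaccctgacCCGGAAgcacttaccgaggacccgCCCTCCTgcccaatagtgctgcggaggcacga
Rpl6: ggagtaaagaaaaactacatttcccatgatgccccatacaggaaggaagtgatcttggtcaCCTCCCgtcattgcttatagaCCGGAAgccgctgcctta
Rps15: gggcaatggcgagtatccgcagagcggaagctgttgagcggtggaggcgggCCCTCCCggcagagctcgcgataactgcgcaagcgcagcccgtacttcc

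Other motifs were searched as exact letters on both strands of the whole RefSeq promoters. The ETS core CCGGAA was present in 33 of 63 members (52.4%), against 21.1% of all genes, 56.7% of the mitochondrial ribosomal proteins and 46.9% of the proteasome subunits. The SP1 box GGGCGG was present in 61.9% of the members, 51.4% of all genes, 49.3% of the mitochondrial ribosomal proteins and 59.4% of the proteasome subunits. The YY1 site AAGATGGCG was present in 4 members (6.35%, against 2.23%), the E-box CACGTG in 6 (9.52%, against 9.34%) and the TATA box TATAAA in 7 (11.1%, against 14.4%). In the same order, the shares were 11.9%, 7.46% and 7.46% of the mitochondrial ribosomal proteins. They were 6.25%, 9.38% and 12.5% of the proteasome subunits. The Tcf/Lef core ATCAAAG was found in 0 of 63 members, against 3.67% of all genes, which says only that these letters are absent from these windows. It was found in 0 of 67 mitochondrial ribosomal proteins and 2 of 32 proteasome subunits. The members had a median of 21 CpG per promoter, against 14 over all promoters, at a GC content of 58.3% against 57%. The mitochondrial ribosomal proteins had the same medians as the members, 21 CpG and 58.3%, and the proteasome subunits had 19 CpG and 56%. The difference between genotypes, described below, was also set beside these features, with no test. The median log2 dKO to WT ratio of counts per kb was -0.27 for 31 members with a tract and -0.39 for 30 without one, and the ratio of counts was -0.30 and -0.27. With and without an ETS core, the median ratio of counts per kb was -0.38 (32 members) and -0.37 (29 members).

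To compare H3K27ac between dKO and WT cells at the members, the log2 dKO to WT ratio was computed from the scaled counts and from the scaled counts per covered kb. H3K27ac was modestly lower in dKO at most members by both measures. The median log2 ratio of counts was -0.28 over the 82 members, against -0.16 over 13496 genes, and the median ratio of counts per kb was -0.38, against -0.19. Counts were below WT at 74 members (90.2%, against 68.6% of all genes), and counts per kb at 71 (86.6%, against 78.1%). The 95% interval of the ratio of counts per kb lay below 0 at 70 members, above 0 at 7 and across 0 at 5. It takes the covered width as fixed and holds no error of the width. The same count was not made over all genes, of which 78.1% were below 0, so it cannot be read as particular to the members.

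Members were called changed at a ratio of at least 1.5 in either direction. By counts, 7 members were lower in dKO, where 10.1% of all genes were, and 1 member, Rps15, was higher, where 3.56% of all genes were. The share of members lower by counts was 8.54%. These counts of members depended on the processing: 3 were lower by counts under either other scaling of the lists and 15 when only the islands touching the window were used, and 12 were higher with those islands and 8 with islands paired by 50% reciprocal overlap. The shares of all genes under these alternatives were not computed. By counts per kb, 20 members (24.4%) were lower, where 12.7% of all genes were, and 1 member, Rps29, was higher, where 0.511% of all genes were. With only the islands touching the window, 31 members were lower by counts per kb and 3 were higher. As reported, only Rpl34 was lower by both measures.

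The mitochondrial ribosomal proteins and the proteasome subunits lay close to the members. Their median ratios were -0.32 and -0.27 by counts and -0.31 and -0.25 by counts per kb. By counts per kb, 18 of 76 mitochondrial ribosomal proteins (23.7%) and 9 of 39 proteasome subunits (23.1%) were called lower. By counts, 4 genes of each family were. No test of the difference between the families was made.

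**Figure D2:**
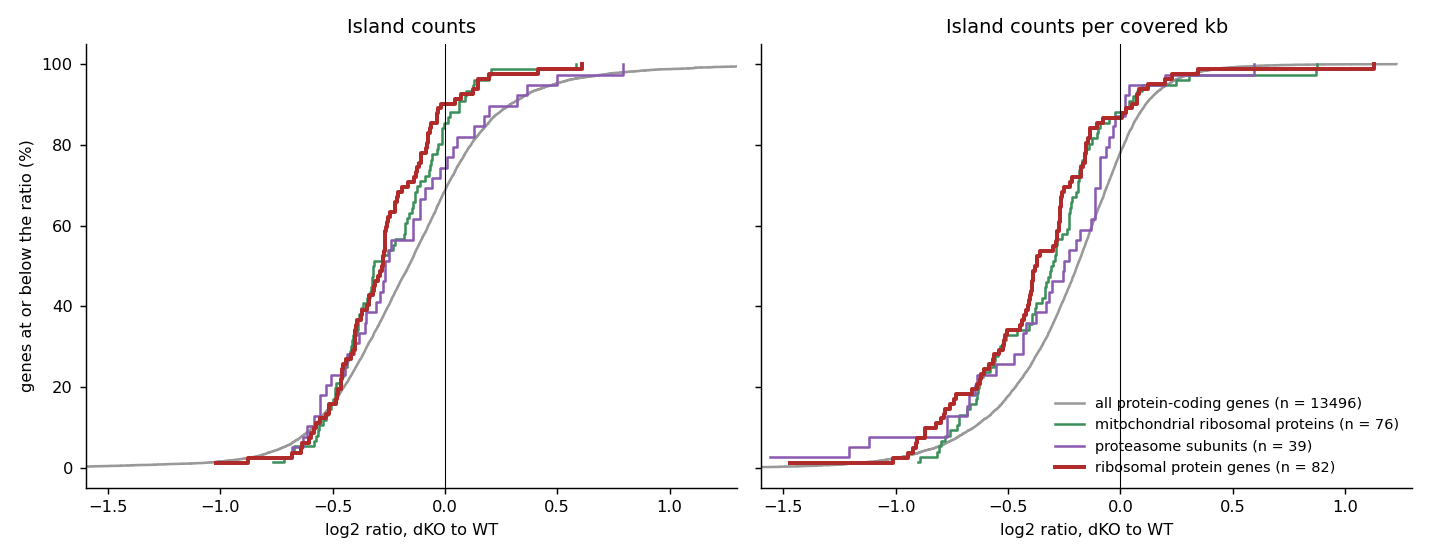
Cumulative share of genes (vertical axis, %) at or below a given log2 dKO to WT ratio (horizontal axis), by island counts on the left and by island counts per covered kb on the right. Lines are the ribosomal protein genes (red, n = 82), mitochondrial ribosomal proteins (green, n = 76), proteasome subunits (violet, n = 39) and all genes that had islands in both lists (grey, n = 13496). The red line runs left of the grey line through its middle in both panels, with medians of -0.28 against -0.16 and of -0.38 against -0.19, and the red, green and violet lines cross each other.

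The genes of the large subunit had a median log2 ratio of -0.29 for counts and -0.39 for counts per kb. Of 42 genes, 2 were called lower by counts (Rpl34 and Rpl27a) and 12 by counts per kb, and none was called higher. Rpl34 (chromosome 3, 130429749-130433316) had 3644 counts across 3.4 kb in WT and 1633 counts across 4.2 kb in dKO. This gave a log2 ratio of -0.64 for counts (-0.72 to -0.55) and of -0.94 for counts per kb (-1.03 to -0.86). Rpl6 (chromosome 5, 121654490-121659250) had the lowest ratio of counts per kb of all members, -1.47 (-1.58 to -1.37). Its 1740 counts across 2.8 kb in WT compared with 1250 counts across 8 kb in dKO, so that the ratio of counts was 0.04 (-0.06 to 0.15). The dKO island reached 7.71 kb downstream of the Rpl6 start, against 2.31 kb in WT. Rpl15 (-0.91), Rpl36 (-0.87), Rpl23a (-0.87), Rpl28 (-0.82), Rpl8 (-0.78), Rpl26 (-0.76), Rpl27 (-0.74), Rpl37 (-0.73), Rpl21 (-0.64) and Rpl38 (-0.61) made up the other large-subunit genes called lower by counts per kb.

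Rpl5 and Rpl11, whose proteins bind Mdm2 when ribosome assembly fails and so link the ribosome to p53, differed in their regions. Rpl5 had 2366 counts across 5.8 kb in WT and 1154 across 5.4 kb in dKO, a log2 ratio of -0.52 for counts and -0.41 for counts per kb. Rpl11 had 8596 counts across 30.6 kb in WT and 5873 across 36.4 kb in dKO, in 2 regions shared with Tceb3, with ratios of -0.03 and -0.28. Rpl22, which is required for the development of alpha-beta T cells, had 2464 counts across 7 kb in WT and 1330 across 6.6 kb in dKO, with ratios of -0.37 and -0.29. Rpl13a, a member of the complex that silences inflammatory mRNAs, shared 1 region with Fcgrt, Flt3l and other genes. This region held 23319 counts across 87 kb in WT and 18011 across 91.6 kb in dKO, with ratios of 0.15 for counts and 0.07 for counts per kb, and these values cannot be assigned to 1 gene.

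Rpl12 (chromosome 2, 32817079-32820016) was among the few members with more counts per kb in dKO. It had 5069 counts across 12 kb in WT and 2838 counts across 8.4 kb in dKO. The ratio was -0.32 for counts (-0.38 to -0.25) and 0.20 for counts per kb (0.13 to 0.26), so that the sign depended on the measure. The island over its start reached 10.3 kb downstream in WT and 6.92 kb in dKO, and the region also held the TSS of Lrsam1.

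In the small subunit, the median log2 ratio was -0.32 for counts and -0.27 for counts per kb. Of 31 genes, 4 were called lower by counts (Rps29, Rps24, Rps12 and Rps20) and 6 by counts per kb, among them Rps15, Rpsa, Rps28, Rps23 and Rps6. Rps29 (chromosome 12, 70258709-70260173) had 2472 counts across 6.2 kb in WT and 851 counts across 1.4 kb in dKO. The ratio was -1.02 for counts (-1.13 to -0.91), the lowest of all members, and 1.13 for counts per kb (1.02 to 1.24), the highest. The upstream edge lay 0.427 kb from the start in both lists, and the downstream edge moved from 5.77 kb to 0.972 kb. Rps24 (chromosome 14, 25309903-25315368) had 2038 counts across 5.6 kb in WT and 773 across 2.6 kb in dKO, with ratios of -0.88 (-1.0 to -0.76) and 0.23 (0.11 to 0.35). Both genes had a narrower island in dKO, at fewer counts.

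Rps15 (chromosome 10, 79755176-79756859) showed the reverse. It had 2303 counts across 5.2 kb in WT and 2449 counts across 16 kb in dKO, in a region shared with Apc2. Its ratio was 0.61 for counts (0.53 to 0.69) and -1.01 for counts per kb (-1.10 to -0.93). Rps21, whose region of 90.8 kb in WT and 95.2 kb in dKO also held Gata5, Cables2, BC066135 and Gm14318, had 20574 counts in WT and 19128 in dKO, with ratios of 0.41 (0.39 to 0.44) and 0.35 (0.32 to 0.37). Rps21 was the only member among the 3 highest by both measures, and the values of its region cannot be assigned to 1 gene.

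Among small-subunit genes with roles beyond the ribosome or in disease, Rps6, the substrate of the S6 kinases, had 4311 counts across 7.4 kb in WT and 2219 across 8.4 kb in dKO, with ratios of -0.44 for counts and -0.62 for counts per kb. Rpsa, also known as the laminin receptor, had 3044 counts across 4.4 kb and 1608 across 5.8 kb, with ratios of -0.40 and -0.80. Rps27a had islands of 2.8 kb in both lists, with 2332 counts in WT and 1136 in dKO and a ratio of -0.52 (-0.62 to -0.42) by either measure. Rps3, which also acts in NF-kappaB signalling, had 2673 counts across 9.2 kb and 1548 across 8.2 kb, with ratios of -0.27 and -0.10. Rps14, the gene linked to the anaemia of a myelodysplastic syndrome, had 12856 counts across 38.2 kb and 7681 across 39.8 kb in a region with Ndst1, with ratios of -0.22 and -0.28. Rps19, the gene most often mutated in Diamond-Blackfan anaemia, shared a region of 40.4 kb in WT and 41.2 kb in dKO with Arhgef1 and Cd79a, a B cell marker. The region held 12334 and 8000 counts, with ratios of -0.10 and -0.13, and it cannot be divided among the 3 genes.

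The P stalk recruits the factors that drive elongation. Rplp0, its core, had 1943 counts across 3.6 kb in WT and 1118 across 4.4 kb in dKO, with ratios of -0.28 for counts and -0.57 for counts per kb. Rplp1 had 6706 counts across 25.6 kb and 4286 across 27.4 kb, with ratios of -0.13 and -0.22, and Rplp2 had 7442 across 19 kb and 4973 across 24.8 kb, with ratios of -0.06 and -0.45. All 3 genes were thus below WT by both measures, and none was called changed.

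The X-linked members Rpl10, Rpl36a, Rpl39 and Rps4x were alike by counts. Their log2 ratios of counts were -0.46, -0.39, -0.46 and -0.40, a median of -0.43, and genes on X in general had a median of -0.55 (n = 345). By counts per kb the X-linked members had ratios of -0.39, -0.39, 0.12 and -0.30, a median of -0.34, and genes on X in general had a median of -0.30. Rpl36a had 892 counts in WT and 474 in dKO across 2 kb in both lists, and Rps4x had the fewest counts of all members, 781 and 413. The 78 members off X had medians of -0.27 and -0.38. The study used both sexes, and how they were divided between the pooled samples is not in the labels, so sex and genotype cannot be told apart for X-linked genes.

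Of the 5 additional paralogs with islands, Rpl22l1 was called lower by counts and Rpl7l1 by counts per kb. Rpl22l1, the paralog of Rpl22, had 1600 counts across 2.6 kb in WT and 697 across 2.4 kb in dKO, with ratios of -0.68 (-0.81 to -0.55) for counts and -0.56 for counts per kb. Rpl22 itself had the smaller differences given above. Rpl7l1 had 1205 counts across 2 kb and 764 across 2.8 kb, with ratios of -0.14 and -0.62. Rpl36al, which starts next to Mgat2 on the other strand, had 3060 counts across 3.4 kb and 1596 across 2.4 kb, with ratios of -0.42 and 0.08. Rps27l, a target of p53, had 3893 counts across 15.8 kb and 2578 across 18 kb, with ratios of -0.07 and -0.26. Rpl3l, known from heart and skeletal muscle, lay in the same region as Rps2 and 3 other genes, with 7604 counts across 23.6 kb in WT and 5172 across 27.8 kb in dKO and ratios of -0.04 and -0.27, so that its island says nothing of its own promoter. Rps19bp1 had 7645 counts across 12.6 kb and 5268 across 23.6 kb, in a region shared with Atf4, with ratios of -0.02 and -0.92.

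Island width separated the members called by one measure from those called by the other. The covered width was larger in dKO at 53 members, smaller at 26 and equal at 3. Over all 13496 genes it was larger at 7520, smaller at 5086 and equal at 890. All 20 members called lower by counts per kb had a wider island in dKO, and 6 of the 7 called lower by counts had a narrower one. Most genes in general split in the same way. Of 1720 genes lower by counts per kb, 1574 had a wider island in dKO. Of 1366 lower by counts, 1296 had one that was not wider. Across the 82 members, Spearman's correlation of the log2 width ratio with the ratio of counts per kb was -0.75, against -0.48 over all genes. Its correlation with the ratio of counts was 0.59 across the members. These values are a description, since width enters both measures. Width is the divisor of counts per kb, and the count of an island grows with its width.

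**Figure D3:**
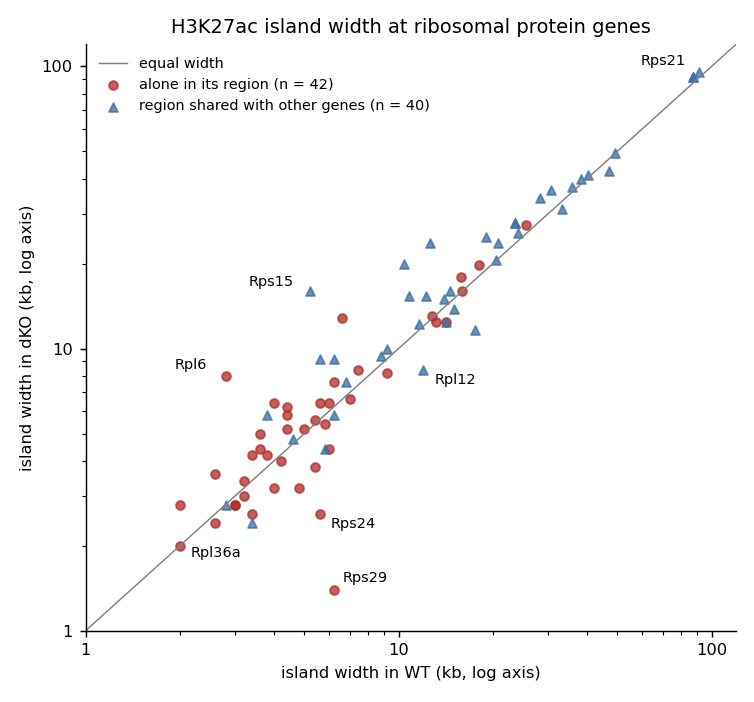
Covered island width in WT (horizontal axis) and dKO (vertical axis) at the 82 members, in kb on log axes. Red circles are members alone in their region (n = 42), blue triangles are members whose region holds other protein-coding genes (n = 40), and the line marks equal width. Rpl6 (2.8 and 8 kb) and Rps15 (5.2 and 16 kb) lie far above the line, and Rps29 (6.2 and 1.4 kb) and Rps24 (5.6 and 2.6 kb) far below it.

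Members whose width hardly differed were therefore compared separately. At 20 members, both lists had a single island and the widths differed by at most 20%. All 20 had lower counts and lower counts per kb in dKO, with median log2 ratios of -0.40 by either measure. The ratios of counts per kb ran from -0.64 to -0.10. Over the 2926 genes that met the same condition, the medians were -0.31 and -0.29, and 86.7% and 87.4% were below 0. Of these 20 members, 2 were called lower by counts per kb (10%, against 9.67% of the 2926 genes) and 1 by counts (5%, against 8.20%).

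The edges of single islands moved in either direction. At the 42 members with 1 island in each list, the upstream edge lay farther out in dKO at 18, farther in at 14 and at the same place at 10, and the downstream edge gave the same 3 numbers. The median shift was 0 kb at both edges. The largest outward shift was 7.8 kb, at the downstream edge of the Rps15 island.

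**Figure D4:**
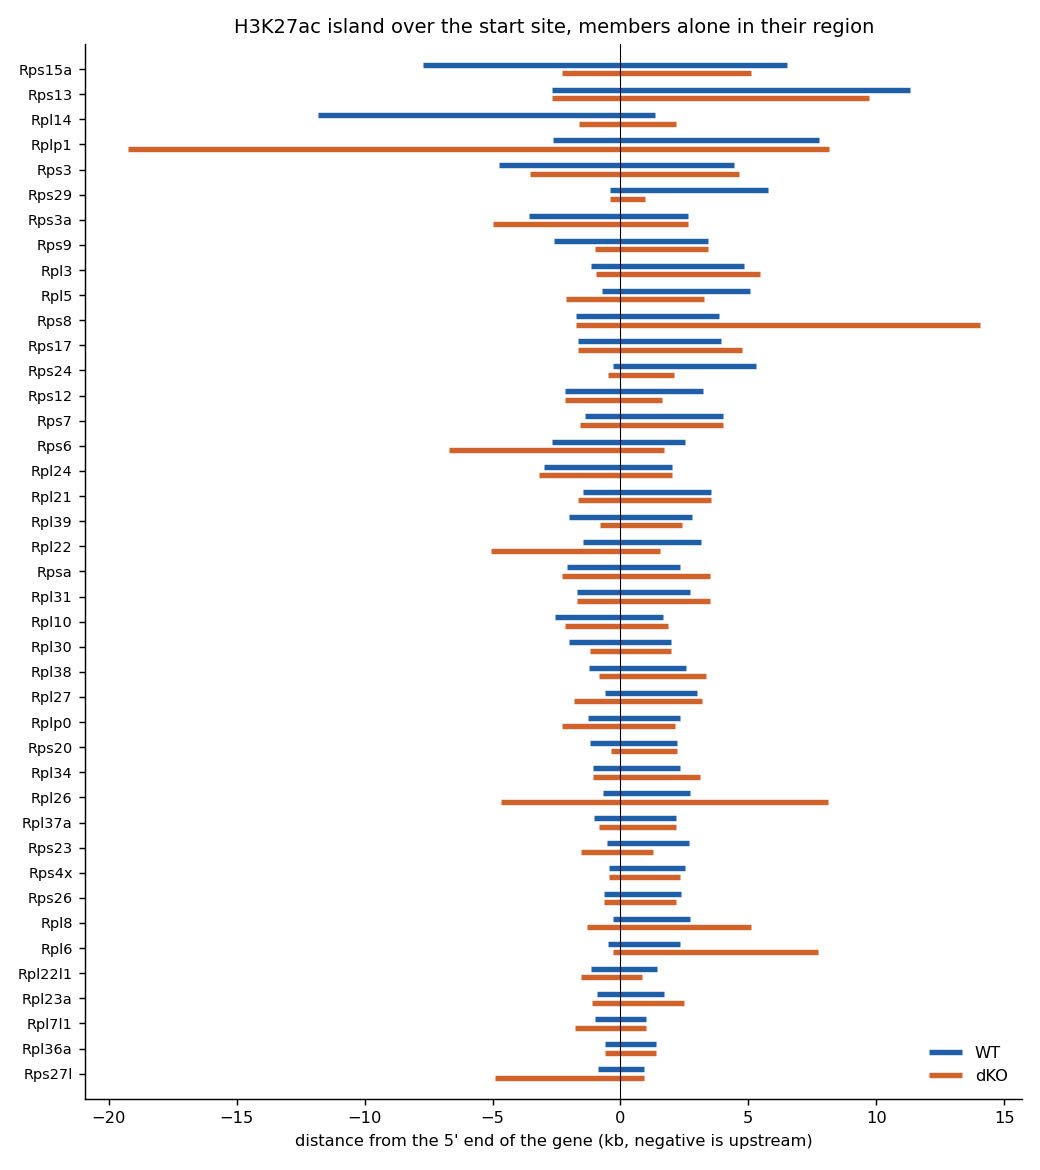
Extent of the H3K27ac island over the start of the gene in WT (blue) and dKO (orange) at 41 of the 42 members alone in their region, in kb from the 5′ end of the gene (horizontal axis, negative is upstream), sorted by width in WT. Further islands of the same gene are not drawn. The bars of both genotypes end at the same places at Rpl36a, the dKO bar reaches farther downstream at Rpl6 (7.71 kb against 2.31 kb), and it is shorter downstream at Rps29 (0.972 kb against 5.77 kb).

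The ratio of counts per kb also depended on depth over all genes, so the members were set against genes of like depth. All 13496 genes were divided into quintiles by the mean depth of both lists. The members fell into these quintiles as 0, 7, 15, 21 and 39 genes from the shallowest to the deepest. In the deepest quintile, the median log2 ratio of counts per kb was -0.52 for the 39 members and -0.40 for all genes, and 14 members were called lower, where 29.0% of all genes in this quintile were. In the next quintile, the medians were -0.39 and -0.30, with 6 of 21 members called lower and 19.7% of all genes. In the middle quintile they were -0.22 and -0.20, and in the one below it -0.16 and -0.13, with 0 of 15 and 0 of 7 members called lower, where 9.26% and 4.52% of all genes in these quintiles were. By counts, the medians in the deepest quintile were -0.40 for members and -0.42 for all genes. By either measure, the distance of the members from all genes in the deepest quintile was thus smaller than over all genes together.

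**Figure D5:**
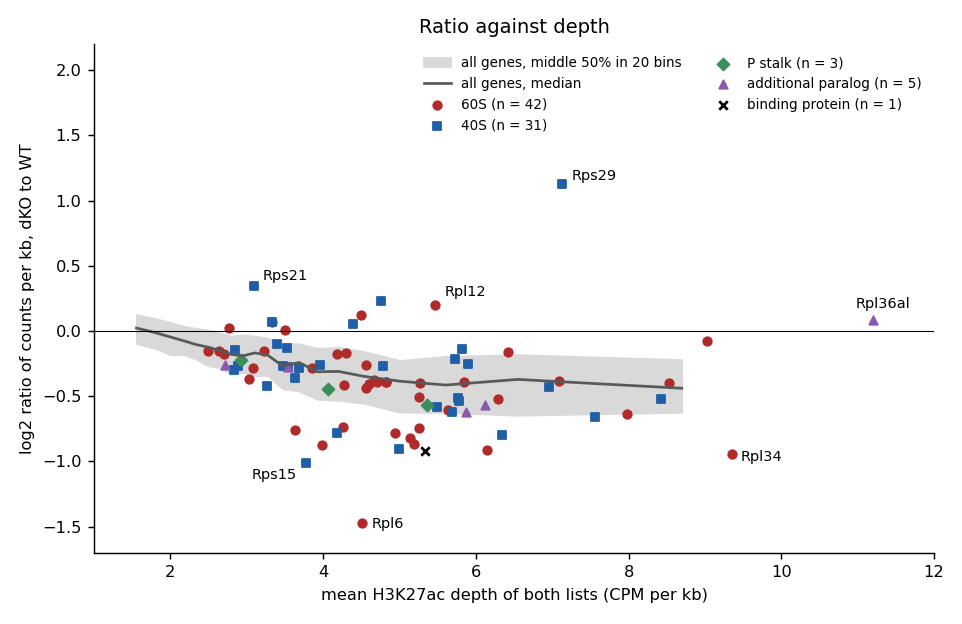
Log2 dKO to WT ratio of counts per kb (vertical axis) against the mean depth of both lists in CPM per kb (horizontal axis). The grey line and band are the median and the middle 50% of all 13496 genes in 20 bins of depth, and points are the 82 members by role. The grey line falls as depth rises, most members lie near or below it, Rpl6 and Rpl34 lie far below it and Rps29 far above it.

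Members alone in their region had lower ratios than members that shared it. The median log2 ratio was -0.40 for counts and -0.42 for counts per kb for the 42 members alone, against -0.21 and -0.27 for the 40 that shared a region. Over all 8198 genes alone in their region, the medians were -0.22 and -0.20. Of the 42 members alone, 6 (14.3%) were called lower by counts, where 13.0% of the 8198 genes were, and 13 (31.0%) were lower by counts per kb, where 13.6% of those genes were. The 9 members whose start lay beside that of a gene on the other strand were Rpl35a, Rpl36al, Rpl4, Rpl7a, Rpl9, Rps2, Rps25, Rps27 and Rps28. Small nucleolar RNAs, which guide the modification of ribosomal RNA, lay within 30 members, 58 in all. Host and other members had the same median ratio of counts, -0.28, and medians of -0.27 and -0.39 by counts per kb.

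Ribosomal protein genes have many processed pseudogenes, and only uniquely mapped reads were kept, so the uniqueness of the regions was measured. Of the overlapping 32-base sequences in the region of a member, a median of 90.6% occurred once in the mm9 genome, with a range from 76.8% to 96.1% over 82 members. The median was 95.6% for the mitochondrial ribosomal proteins and 95.1% for the proteasome subunits. Reads of the repeated parts have no count here, and their part in the differences between genotypes was not tested. The read length is not given in the sources used here.

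Genes that act with the ribosomal proteins were described in the same way from lists named in the processing section. Of all genes, 10.1% were called lower by counts and 12.7% by counts per kb. Fau and Gnb2l1 (Rack1), ribosomal proteins that the symbol rule misses, had islands in both lists. Fau had a ratio of -0.11 for counts and -0.56 for counts per kb, and Gnb2l1 had -0.20 and -0.34. Of 7 listed genes with Eef symbols, 0 were called by counts and 2 were lower by counts per kb, Eef1g (-0.66) and Eef1e1 (-0.62). The medians were -0.16 and -0.29. Eef1a1, which delivers aminoacyl-tRNA to the ribosome, had a ratio of -0.24 for counts and -0.56 for counts per kb, and Eef2, the translocation factor, had -0.07 and -0.02.

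Other genes whose mRNAs begin with an oligopyrimidine tract had a median ratio of -0.38 for counts and -0.49 for counts per kb. Of these 10 genes, 1 was lower by counts, Eif3e (-0.83), and 4 were lower by counts per kb. The 4 were Npm1 (-0.95), a nucleolar chaperone, Pabpc1 (-0.81), the poly(A)-binding protein, Tpt1 (-0.65) and Eif3h (-0.65). Eif3e narrowed from 2.8 kb to 1.2 kb, and its ratio of counts per kb was 0.39.

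The genes of ribosome assembly had the lowest median ratio of counts per kb of the lists, -0.55, and all 18 were below 0. All 10 genes of the RNA polymerase I list were also below 0, as were 78.1% of all genes. Of the 18 assembly genes, 9 (50%) were called lower by counts per kb, where 12.7% of all genes were. The share was 29.0% for all genes in the deepest quintile and 20.9% for all genes with a wider island in dKO. Of the 18, 13 had a wider island in dKO, and their median depth in WT was at percentile 87.2 of all genes. They were not compared with genes of like depth or width. The 9 included Wdr12 (-1.12), which acts with Pes1 and Bop1 in 60S assembly, Ltv1 (-1.07), a factor of 40S assembly, and Nop56 (-1.0) and Nop58 (-0.77), core proteins of the box C/D particles. Pes1 (-0.65) and Ncl (-0.62), which encodes nucleolin, were the 2 called lower by counts (11.1%, against 10.1% of all genes). The median by counts was -0.31. Of 10 genes of RNA polymerase I and its factors that the annotation names, Ubtf (-0.60) was called lower by counts per kb. Polr1b was called higher by counts (0.61), with an island that widened from 3.6 kb to 8.2 kb and a ratio of -0.58 by counts per kb. Of 11 regulators of ribosome production and translation, Mtor was called lower by counts per kb (-0.85), with 1538 counts across 2 kb in WT and 775 across 2.6 kb in dKO. Myc, which activates many genes of this pathway, had 9739 counts across 33.4 kb and 5514 across 32.2 kb, with ratios of -0.30 and -0.25.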

How the data were processed

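H3K27ac ChIP-seq was performed on naive CD8+ T cells of WT (4 samples) and dKO (3 samples) mice, with 1 input per genotype. Per the labels and the study's methods, the authors aligned reads to mm9 with Bowtie2 2.2.5, kept reads of mapping quality above 10, pooled the samples of a genotype and called islands with SICER 1.1 (window 200 bp, gap 400 bp, FDR 0.01), and FastQC is named among their tools. The deposited values are unscaled read counts per island. They exist only where an island was called and grow with its width. No input values were analysed here, and the treatment of duplicate reads is not given in the sources used here.

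Starts, counted from 0 in the deposited lists, are given from 1. Islands of both lists sharing at least 1 bp were merged, and regions touching 1 kb either side of any TSS of a gene in GENCODE vM1 (NCBIM37, which is mm9) were summed with Python 3.11 and numpy. Ratios used the total island counts of each list. A ratio of 1.5 was called changed. No p-value was computed, since each genotype is 1 pooled list. The 95% Wilson intervals cover counting error only. The steps were tested on simulated data.

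The members and the lists were chosen with earlier results of these data known. Named were the P stalk, Rpsa, the additional paralogs, the X-linked members, Rpl12, members with roles beyond the ribosome or in disease (Rps19, Rpl5, Rpl11, Rps3, Rps6, Rps14, Rpl13a, Rpl22, Rps27a), the 4 highest and lowest by ratio of counts per kb, the 3 highest and lowest by ratio of counts, WT depth and width, and members without islands. Other members named were added where a count was given. The lists were ribosomal proteins missed by the rule, genes with Eef symbols (elongation factors and related genes), other oligopyrimidine-tract genes, ribosome assembly, RNA polymerase I and regulators. Some members and listed genes are not reported by name here. Taf1a is not in the annotation and was not analysed here. Promoter sequences came from RefSeq and were located in mm9 by exact match. Alternatives changed the TSS, the window, the joining and pairing of islands, the scaling, the island minimum, the members included and the ratio called.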

Additional observations from a re-analysis of the deposited data

How the results depend on the processing

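No paired analysis was possible because each genotype is 1 pooled list, and for the same reason no sample could be left out. Of the 13 alternatives for each median, 13 kept it below 0, from -0.40 to -0.21 by counts and from -0.48 to -0.30 by counts per kb. The median ratio of counts, -0.28 as reported, was -0.29 with the 5′ end of the gene alone and with the TSS base itself, -0.27 with 2 kb either side, -0.32 with the islands touching the window only, -0.21 when scaled by shared-region totals and by the median ratio, -0.35 for islands paired by 50% reciprocal overlap, -0.40 for members alone in their region and -0.40 for those of like width. The median ratio of counts per kb, -0.38 as reported, was -0.30 with 2 kb either side, -0.48 with the islands touching the window only, -0.31 and -0.30 under the 2 scalings in the same order, -0.40 with paired islands, -0.42 for members alone, -0.40 for those of like width and -0.39 with each region counted once. The last 2, and the medians without Rps19bp1 and the additional paralogs, were chosen after seeing the data.

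Members called lower by counts numbered 7 as reported, 15 with the islands touching the window only, 3 under either scaling, 35 at a ratio of 5 to 4 and 1 at a ratio of 2. Members called higher by counts numbered 1 as reported, 12 with the islands touching the window only, 8 with paired islands, 0 for members alone, 2 at a ratio of 5 to 4 and 0 at 2. By counts per kb, 20 members were lower as reported, 31 with the islands touching the window only, 13 of the 42 members alone, 44 at a ratio of 5 to 4 and 2 at 2, and 1 was higher as reported, 3 with the islands touching the window only and 2 at a ratio of 5 to 4. An island that is split in 1 list loses its parts outside the window under that alternative, by its construction. Shares of all genes were computed only as reported, for genes alone in their region, for genes of like width and for genes off chromosome X. Off X, 7 of 78 members were lower by counts (8.97%, against 9.22% of all genes there). By counts per kb, 20 were lower (25.6%, against 12.7%). The counts of members under the other settings and ratios therefore cannot be set against all genes. Members with islands in both lists numbered 82 under 5 alternatives, 78 off chromosome X and 65 with paired islands, and 42 for members alone because the others were left out. The other scalings shifted all ratios upward by 0.07 (log2). Depth limits single members little, with at least 413 counts in the dKO list, but the spread between mice is unknown.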
